A study of Oryza sativa with 4 samples.

Results

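In young panicles of emf2b rice, 36 of the 45027 loci in the deposited table were weak in the wild type (WT) and strongly raised in the mutant. They were chosen on the measured values themselves: both WT libraries lay above 0.1 and below 5 counts-per-million (CPM, the share of a library's counted reads that fell on a locus), both emf2b libraries held at least 10 CPM, and the lower emf2b value was at least 8 times the higher WT value. Their high level in emf2b is therefore given as a description, with no test. Of the 8115 loci in that WT range, 92 reached 10 CPM in both emf2b libraries, and 36 of these also reached the ratio of 8. The same rule turned round, weak in emf2b and strong in WT, found 3 loci.

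There were 2 libraries of genotype emf2b-1 and 2 of WT, all in the cultivar Dongjin, from greenhouse plants kept at 30°C in the daytime and 25°C at night. Panicles were at inflorescence stage 7 and measured 0.3 to 1.5 cm. The protocol text speaks of wild-type tissue for every sample, so groups follow the genotype label and the column names, which name the genotype and a barcode and carry no replicate number. Whole panicles were used, in which fewer cells of a type and less RNA per cell cannot be told apart.

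EMF2B encodes a subunit of Polycomb repressive complex 2 (PRC2), which places the mark H3K27me3 on the histones of genes that are to stay silent. In plants PRC2 is best known for holding developmental regulators and seed genes silent where they are not used. Expression alone was measured here, and no histone mark.

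Sequencing was less deep in the mutant, with 12932305 and 16926873 reads in emf2b GAGT and TTAG against 25382519 and 32087683 in WT ACCC and CGTA. Libraries of the same genotype differed by much more than read counting alone would give, with a chi-square per degree of freedom of 39.7 within emf2b and 53.8 within WT over loci with at least 10 reads. EMF2B itself (LOC_Os09g13630.1) stood at 9.90 and 11.9 CPM in emf2b and 37.1 and 38.8 CPM in WT, or -1.84 ± 0.21 as a log2 fold change (SE, edgeR), so its reads were reduced but present. Of the panicle's 27 tested MADS-box genes 3 rose and 4 fell (edgeR, adjusted p threshold 0.05), against 11.5% and 1.86% of all 22615 tested loci, and the list summed to 753 and 698 CPM in emf2b and 705 and 928 CPM in WT. MADS6, a floral meristem and organ identity gene, had 18.1 and 22.6 CPM in emf2b and 130 and 211 CPM in WT, and its call held with any 1 library left out. The KNOX, WOX and YABBY genes summed to 232 and 309 CPM in emf2b and 315 and 400.0 CPM in WT. Of the 12 tested, 4 fell, against 1.86% of all tested loci. Those 4 were the YABBY genes DL, YAB1, YAB3 and YAB4, and no tested KNOX or WOX gene was called.

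**Figure D1:**
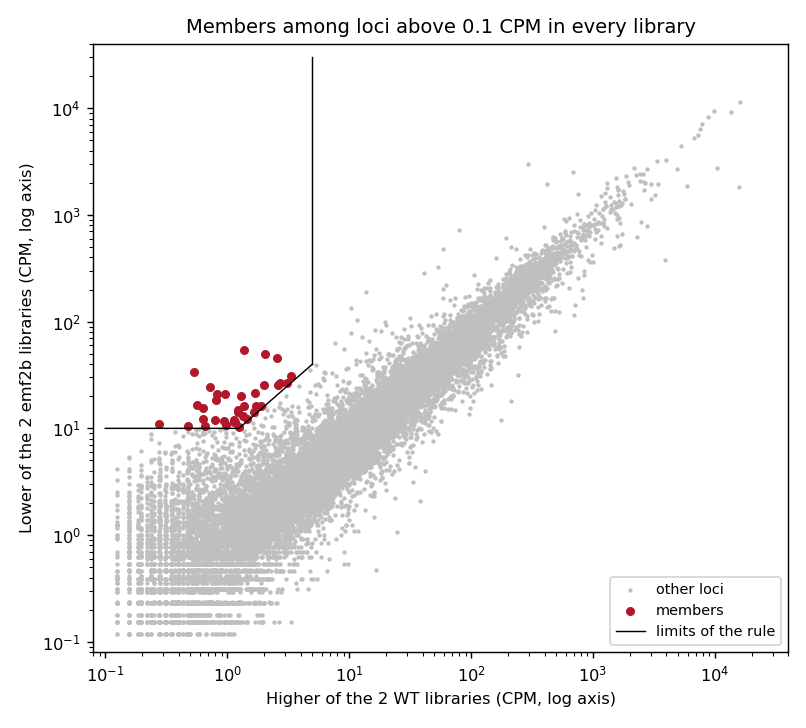
Each point is a locus above 0.1 CPM in every library, placed by the higher of its 2 WT values (x axis, CPM, log scale) and the lower of its 2 emf2b values (y axis, CPM, log scale). The 36 members, in red, lie above the black limits of the rule, away from the diagonal band that holds most loci.

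As a group the 36 loci held 956 and 887 CPM in emf2b GAGT and TTAG, against 44.8 and 32.1 CPM in WT ACCC and CGTA. Their median level was 16.3 and 20.9 CPM in the emf2b libraries and 1.18 and 0.65 CPM in the WT libraries. WT levels rested on few reads, from 7 to 84 per locus in WT ACCC and from 6 to 100 in WT CGTA, while the emf2b libraries held at least 136 reads in GAGT and 174 in TTAG. All 36 passed the low-count filter and all were called higher by edgeR, beside 11.5% of all 22615 tested loci, and nothing is read from that count because the rule used the same contrast. Log2 fold changes ran from 3.18 to 6.11, with a median of 4.27. The rule set the lower bound of 10 CPM in emf2b. Of the 36, 16 stayed below 20 CPM in both emf2b libraries, 13 reached 20 CPM in both, and 2 reached 50 CPM in both.

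**Figure D2:**
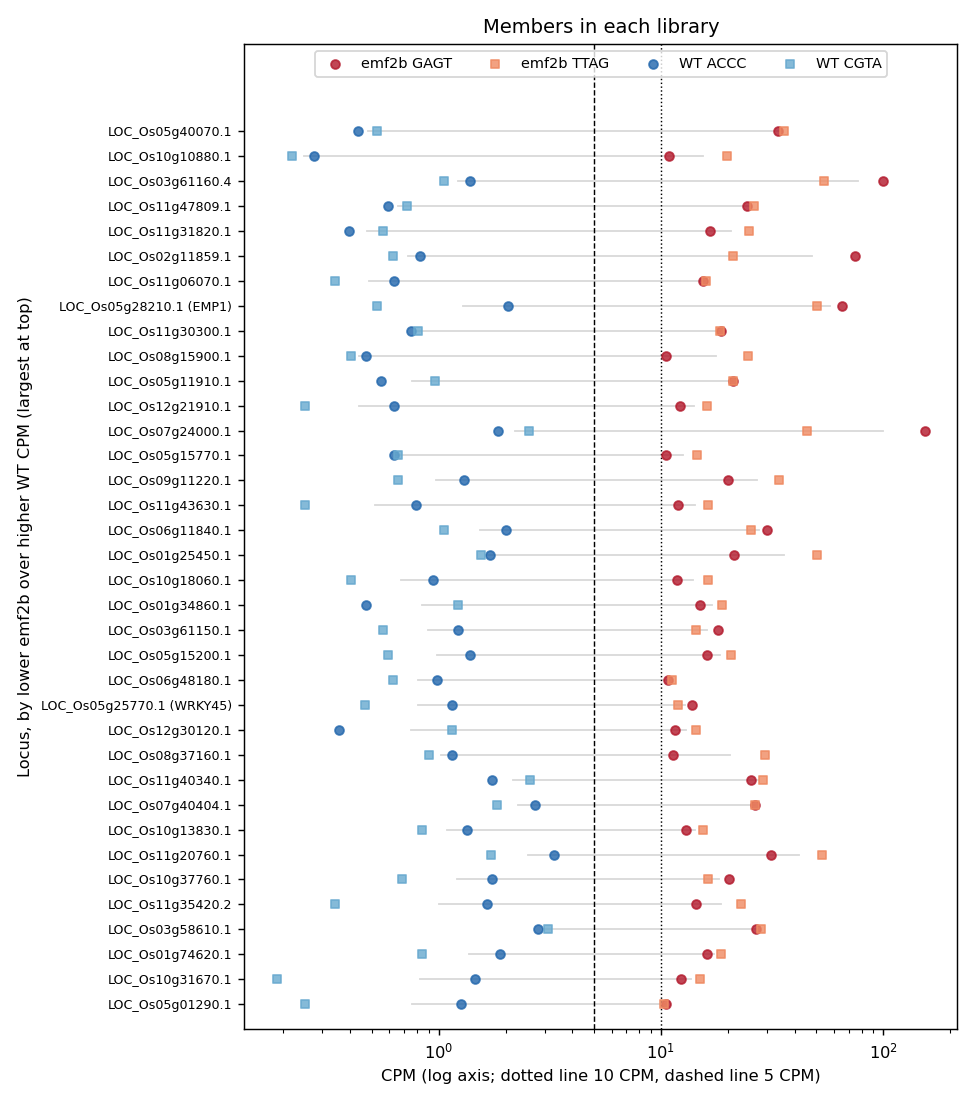
CPM of each of the 36 loci in every library (x axis, log scale), with the loci ordered by the lower emf2b over the higher WT value, the largest at the top. Grey lines join the group means. Red and orange symbols are emf2b libraries and blue symbols WT libraries, and the distance between the colours narrows down the page to a ratio of 8.15.

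Identifiers in the deposited table come without gene names, and 0 of them occur in the RefSeq gene table used here, so most of these loci are named by identifier alone. The locus with the largest ratio was LOC_Os05g40070.1 on chromosome 5. It had 33.8 and 35.6 CPM in emf2b GAGT and TTAG and 0.43 and 0.53 CPM in WT ACCC and CGTA, which is 437 and 603 reads in emf2b against 11 and 17 in WT. Both emf2b values and both WT values were close to each other, and its log2 fold change was 6.11 ± 0.28 (SE). LOC_Os10g10880.1 on chromosome 10 had the lowest WT mean of the 36, with 10.9 and 19.9 CPM in emf2b and 0.28 and 0.22 CPM in WT, from 7 reads in each WT library. LOC_Os11g47809.1 on chromosome 11 had 24.4 and 26.2 CPM in emf2b and 0.59 and 0.72 CPM in WT. Its neighbour in the order of ratios, LOC_Os11g31820.1, had 16.5 and 24.8 CPM in emf2b and 0.39 and 0.56 CPM in WT. In all, 14 loci had a ratio of at least 16, and 12 had one below 10.

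The limit of 8 did not fall in a gap between loci. Just inside it lay LOC_Os05g01290.1 with a ratio of 8.15, LOC_Os10g31670.1 with 8.43 and LOC_Os01g74620.1 with 8.51. LOC_Os05g01290.1 had 10.5 and 10.3 CPM in emf2b and 1.26 and 0.25 CPM in WT. Just outside lay RCN4 (LOC_Os04g33570.1) with 7.93, LOC_Os11g14900.4 with 7.74 and PBZ1 (LOC_Os12g36880.1) with 7.33. RCN4, of the TFL1-like family that keeps inflorescence meristems from turning into flowers, had 16.3 and 16.1 CPM in emf2b and 1.65 and 2.03 CPM in WT, so it missed the list narrowly with libraries that agree well within each genotype. PBZ1, for a pathogenesis-related protein, had 35.0 and 85.5 CPM in emf2b and 4.77 and 3.37 CPM in WT.

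The ratio of emf2b GAGT to emf2b TTAG had a median of 0.87 and lay within 1.5-fold either way for 26 of the 36. It was over 2-fold for 5, against 18 of the 56 loci that met the WT range and the 10 CPM limit but not the ratio. The rule tests the lower emf2b value, which favours loci with like values in both, so that difference is a description. LOC_Os02g11859.1 was the most unequal, with 74.5 CPM in GAGT and 21.0 CPM in TTAG, against 0.83 and 0.62 CPM in the WT libraries. LOC_Os07g24000.1 was the highest in any library, with 154 CPM in GAGT and 45.4 CPM in TTAG, against 1.85 and 2.56 CPM in the WT libraries. The other 3 stood higher in TTAG. LOC_Os08g37160.1 had 11.4 CPM in GAGT and 29.4 CPM in TTAG, against 1.14 and 0.90 CPM in WT. LOC_Os01g25450.1 had 21.3 and 50.6 CPM in those emf2b libraries and LOC_Os08g15900.1 had 10.5 and 24.8 CPM, against at most 1.69 CPM in WT for either. At the even end, LOC_Os07g40404.1 had 26.6 CPM in both emf2b libraries and 2.72 and 1.84 CPM in WT, and LOC_Os05g11910.1 had 21.0 and 21.1 CPM in emf2b and 0.55 and 0.97 CPM in WT.

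WT ACCC stood above WT CGTA at 25 of the 36 loci (69.4%), against 51.9% of all loci in the same WT range, and 14 of the 36 (38.9%) differed over 2-fold between the WT libraries, against 20.5% in that range. LOC_Os10g31670.1 was the most unequal in WT, with 1.46 CPM in ACCC and 0.19 CPM in CGTA, below its 12.3 and 14.9 CPM in emf2b.

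A pair of these loci carry gene names from lists of known rice genes. EMP1 (LOC_Os05g28210.1, chromosome 5), which encodes a late embryogenesis abundant (LEA) protein made as seeds mature, had 65.1 and 50.2 CPM in emf2b GAGT and TTAG and 2.05 and 0.53 CPM in WT ACCC and CGTA. The emf2b values lay close together and far above both WT values, which differed from each other by 3.87-fold, and the log2 fold change was 5.48 ± 0.56 (SE). WRKY45 (LOC_Os05g25770.1, chromosome 5), a transcription factor of salicylic acid-dependent defence, had 179 and 202 reads in emf2b, or 13.8 and 11.9 CPM, and 29 and 15 reads in WT, or 1.14 and 0.47 CPM. Its log2 fold change was 3.98 ± 0.46 (SE). The symbol EMP1 occurs in the RefSeq table on the chromosome that the locus identifier gives, whereas WRKY45 was not found there.

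Other genes of the lists that hold EMP1 and WRKY45 rose too. Of 12 tested seed and dehydrin genes 5 rose, and the other 7 missed the threshold (edgeR, Benjamini-Hochberg adjusted p threshold 0.05), beside 11.5% called higher over all tested loci. EMP1 is in that count through the rule. Without it 4 of 11 rose (36.4%), with a median log2 fold change of 2.37 against 0.01 over all tested loci. The lists were chosen with earlier results of these data known, so this comparison is a description. The 5 were EMP1, VP1 and the dehydrin genes RAB16A, RAB16B and RAB16C. VP1 rested on few reads, with 9 in GAGT and 52 in TTAG (0.70 and 3.07 CPM), against 4 and 3 in WT ACCC and CGTA. Without WT ACCC or without WT CGTA only the call of EMP1, which the rule chose, held. RAB16A had 798 CPM in GAGT and 78.2 CPM in TTAG, against 10.4 and 10.3 CPM in the WT libraries. RAB16B had 170 CPM in GAGT and 14.8 CPM in TTAG, against 1.02 and 2.43 CPM in the WT libraries. RAB16C had 32.5 CPM in GAGT and 2.19 CPM in TTAG, against 0.47 and 0.53 CPM in the WT libraries. All 3 were over 10 times higher in GAGT than in TTAG, where EMP1 differed by 1.30-fold; the RAB16 genes are similar copies whose short reads could have been shared. Of the 3 tested storage protein genes, 0 passed the test with edgeR or with DESeq2, and 1 had an unadjusted edgeR p under 0.05. GluA1, for a glutelin, had 5.57 and 5.44 CPM in emf2b and 4.73 and 3.86 CPM in WT. GluA2 had 3.17 and 3.37 CPM in emf2b and 2.64 and 4.67 CPM in WT. GluA3 had 0.93 and 0.83 CPM in emf2b and 0.28 and 0.28 CPM in WT. The globulin gene Glb1 had 1 read in emf2b GAGT and none elsewhere. The 17 genes of this list summed to 1100 and 168 CPM in emf2b and 26.8 and 26.7 CPM in WT, and RAB16A made up most of the emf2b GAGT sum. The sum over stress NAC, DREB and PP2C genes was also higher in emf2b GAGT, with 860 and 289 CPM in emf2b and 169 and 206 CPM in WT. In this list SNAC2 was the largest part of the GAGT sum, while DREB1B, NAC3 and PP2C53 stood higher in TTAG. Of 12 tested, 4 rose, and all 4 calls were lost without WT ACCC and without WT CGTA. SNAC2, a stress-responsive NAC transcription factor, had 375 and 49.1 CPM in emf2b and 17.8 and 22.8 CPM in WT; its call was lost without WT ACCC (edgeR adjusted p = 0.130) or WT CGTA (0.158) and with DESeq2 (0.0594). Leaf photosynthesis genes, of which 3 were measured, summed to 7.11 and 3.60 CPM in emf2b and 3.55 and 4.18 CPM in WT, and RBCS3, for a Rubisco small subunit, was the one that rose, with 2.47 and 1.24 CPM in emf2b and 0.20 and 0.28 CPM in WT. The 9 tapetum and pollen genes summed to 64.5 and 95.7 CPM in emf2b and 110 and 116 CPM in WT, most of it from MSP1, a receptor kinase gene of the anther, with 56.6 and 80.7 CPM in emf2b and 105 and 109 CPM in WT. The median log2 fold change of the 5 tested was 0.15.

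Among 9 tested defence WRKY and pathogenesis-related genes, 5 rose and the other 4 missed the threshold, beside 11.5% called higher over all tested loci. Without WRKY45, which the rule puts in that count, 4 of 8 rose, with a median log2 fold change of 1.96. This list too was chosen with earlier results known, so the comparison is a description. Without WT ACCC the count was 3 and without WT CGTA 2. The 5 were WRKY45, PBZ1, WRKY13, WRKY71 and the chitinase gene Cht2. WRKY71 had 31.3 CPM in GAGT and 3.37 CPM in TTAG, against 0.35 and 0.06 CPM in WT ACCC and CGTA. It was thus short of 10 CPM in TTAG and also under the limit of 0.1 CPM in WT CGTA, where it had 2 reads. NPR1, a regulator of salicylic acid responses, had 4.95 and 5.91 CPM in emf2b and 4.77 and 6.05 CPM in WT. Of 31 MADS-box genes, which hold many known targets of Polycomb repression in plants, 11 lay in the WT range and 0 were among the 36. The 36 are 0.444% of the loci in that range, and 0 of 11 is close to that share. Also absent were the 16 KNOX, WOX and YABBY genes, 9 measured flowering time genes, 8 jasmonate JAZ genes, 7 SWEET genes and 11 measured diterpenoid phytoalexin genes. In that order, only 3, 3, 2, 2 and 0 of them lay in the WT range, so nothing is read from their absence. Diterpenoid phytoalexin genes were weak in both genotypes. CYP99A2 of momilactone synthesis, the one called higher, had 1.93 and 1.65 CPM in emf2b and 0.08 and 0.12 CPM in WT (edgeR log2 fold change 4.01 ± 0.72 SE, adjusted p = 0.0209), a call lost when any 1 library was left out, with edgeR adjusted p from 0.0505 to 0.117. With the lists of stress NAC, DREB and PP2C genes, gibberellin genes and PRC2 genes, the 13 lists held 153 loci of the table, of which 2 were among the 36.

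**Figure D3:**
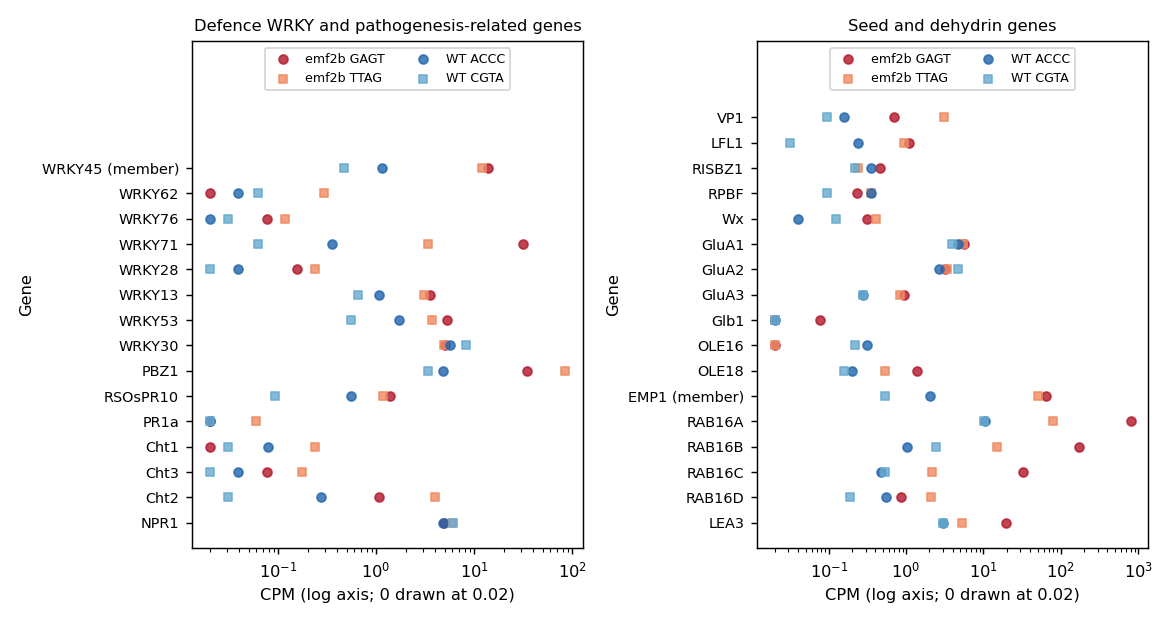
CPM in every library (x axis, log scale, 0 drawn at 0.02) for the measured genes of the lists that hold WRKY45 (left) and EMP1 (right). Red and orange symbols are emf2b libraries and blue symbols WT libraries; EMP1 has both emf2b values together at 50.2 and 65.1 CPM, while the RAB16 genes above 10 CPM are spread between the emf2b libraries.

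Position was not used to choose the loci. They lay on 11 of the 12 chromosomes. Chromosome 11 held 8 of them (22.2%), against 6.96% of the loci in the same WT range and 8.40% of all loci called higher. Chromosome 5 held 7 (19.4%), against 8.01% and 8.17%, and chromosome 10 held 5 (13.9%), against 6.15% and 6.55%. Chromosome 4 held 0, against 8.91% and 9.21%. On chromosome 11 the locus closest to another was 98 places away in the order of locus numbers, so these 8 are no run of neighbours.

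**Figure D4:**
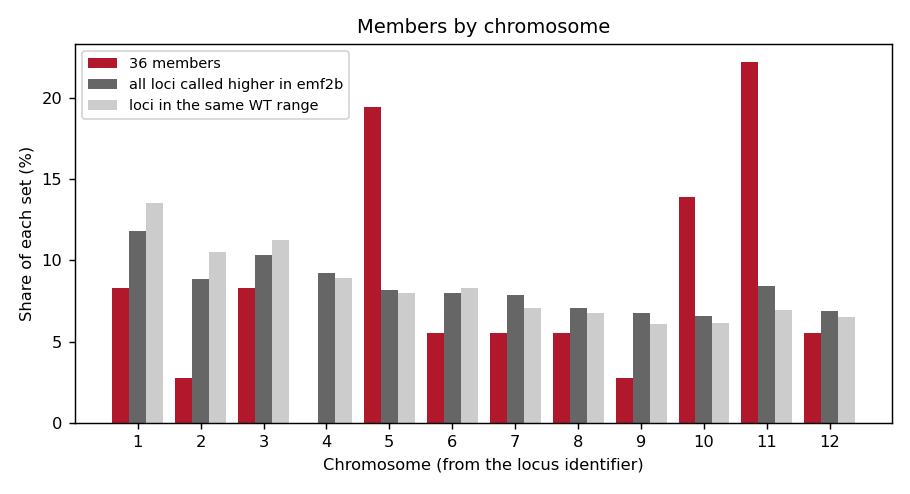
Share (y axis, %) of the 36 members, of all loci called higher in emf2b and of all loci in the same WT range that lies on each chromosome (x axis). Bars for the 36 loci stand above both others on chromosomes 5, 10 and 11, and chromosome 4 has none.

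Of the 36, only LOC_Os03g61150.1 and LOC_Os03g61160.4, on chromosome 3, were next to each other. LOC_Os03g61160.4 had 99.8 and 54.4 CPM in emf2b and 1.38 and 1.06 CPM in WT, and LOC_Os03g61150.1 had 18.0 and 14.4 CPM in emf2b and 1.22 and 0.56 CPM in WT. Both were higher in emf2b GAGT than in emf2b TTAG. The next locus on one side, LOC_Os03g61140.2, had 19.0 and 16.5 CPM in emf2b and 18.0 and 17.2 CPM in WT, and on the other side LOC_Os03g61170.1 had 5 reads in emf2b TTAG and none elsewhere. Whether counting used strand is not stated in the labels or the table, and reads of overlapping neighbours may therefore be mixed.

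Some of the loci beside the 36 were raised too. Within 2 places on either side lay 140 other loci, whose values were not used by the rule, and 70 of them were tested. Of these 15 rose (21.4%), against 11.5% of all tested loci, 3 fell, against 1.86% of all tested loci, and 52 did not pass the test (edgeR, adjusted p threshold 0.05). Those in the WT range of the rule gave 7 of 17 (41.2%), against 13.6% of all tested loci in that range. LOC_Os10g31670.1 alone supplied 3 of these 7, so that share leans on a single place in the genome. Other raised loci had such neighbours as well: beside the 56 loci under the ratio of 8, 20 of 115 tested neighbours rose (17.4%), and beside all 2596 loci called higher, 705 of 4253 (16.6%). Of those neighbours in the WT range, 9 of 36 tested (25%) rose beside the 56, and 253 of 1308 (19.3%) beside all loci called higher. Loci of the same set were left out of the neighbours of the 36 and of the 56. For all loci called higher they were kept, so those shares are not built alike. The differences between these shares were not tested. Without WT ACCC the count was 9 of 76, against 3.13% of all loci tested then, and without WT CGTA it was 5 of 76, against 1.01%. The median log2 fold change of the 70 was 0.13, and 39 of them had a positive value. Of the 36 loci, 13 had a raised locus within 2 places, 2 of them the adjacent pair described above, and 23 had none. No like count over other loci stands beside the 13, so nothing is read from it.

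**Figure D5:**
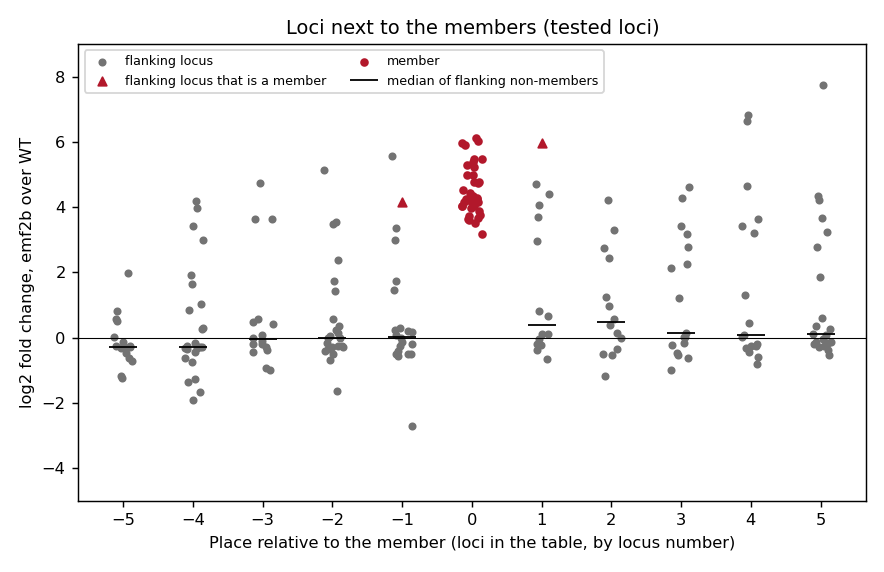
Log2 fold change, emf2b over WT (y axis), of tested loci by their place from a member in the order of locus numbers (x axis, 0 is the member). Red points are the 36 members, red triangles the pair that lie side by side, grey points other loci and black dashes their median at each place, which is highest at 0.48, 2 places on.

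LOC_Os10g31670.1 on chromosome 10 had the most raised neighbours, 3 of 4. LOC_Os10g31640.1 had 4.56 and 9.69 CPM in emf2b and 0.20 and 0.19 CPM in WT (edgeR adjusted p = 0.00801). LOC_Os10g31680.1 had 11.6 and 16.8 CPM in emf2b and 2.95 and 0.65 CPM in WT (edgeR adjusted p = 0.0273). LOC_Os10g31690.1 had 7.11 and 23.8 CPM in emf2b and 1.06 and 0.56 CPM in WT (edgeR adjusted p = 0.0155). The fourth, LOC_Os10g31660.1, had 4.02 and 16.1 CPM in emf2b and 1.81 and 0.12 CPM in WT and did not pass the test (edgeR adjusted p = 0.0772). Without WT CGTA the calls of LOC_Os10g31680.1 (edgeR adjusted p = 0.0583) and LOC_Os10g31690.1 (edgeR adjusted p = 0.0632) were lost. Each of the 5 loci stood higher in emf2b TTAG than in GAGT and higher in WT ACCC than in CGTA, by a little only for LOC_Os10g31640.1 in WT.

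LOC_Os06g48180.1 on chromosome 6 had loci that rose 2 places away on either side, both stronger than itself. It had 10.7 and 11.2 CPM in emf2b and 0.98 and 0.62 CPM in WT. LOC_Os06g48200.1, on one side, had 2371 and 1960 CPM in emf2b and 361 and 420 CPM in WT (edgeR log2 fold change 2.44 ± 0.23 SE, adjusted p = 0.00570), and LOC_Os06g48160.1, on the other, had 185 and 66.3 CPM in emf2b and 14.7 and 6.48 CPM in WT (edgeR log2 fold change 3.54 ± 0.58 SE, adjusted p = 0.0180). The call of LOC_Os06g48160.1 was lost without WT CGTA (edgeR adjusted p = 0.0735). Directly beside LOC_Os06g48180.1, LOC_Os06g48170.1 was not called, with 2.09 and 3.66 CPM in emf2b and 2.32 and 2.49 CPM in WT. On the other side LOC_Os06g48190.1, with 0.08 CPM in WT ACCC and 0 elsewhere, was not tested.

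LOC_Os03g58610.1 on chromosome 3 was raised beside a locus that fell. It had 26.8 and 28.2 CPM in emf2b and 2.80 and 3.12 CPM in WT, and the smallest log2 fold change of the 36, 3.18 ± 0.24 (SE). The next locus, LOC_Os03g58600.1, is MEL1, for an Argonaute protein of germ cells, named here after its values were seen. It had 13.5 and 14.7 CPM in emf2b and 84.1 and 96.4 CPM in WT, a log2 fold change of -2.71 ± 0.19 (SE, edgeR adjusted p = 0.00364). The other neighbours that fell were LOC_Os05g01310.1, with 48.3 and 43.8 CPM in emf2b and 125 and 79.0 CPM in WT (edgeR adjusted p = 0.0285), and LOC_Os07g40380.1, with 6.03 and 8.68 CPM in emf2b and 14.9 and 29.9 CPM in WT (edgeR adjusted p = 0.0302). Without WT CGTA neither passed, with edgeR adjusted p = 0.0510 for LOC_Os05g01310.1 and 0.178 for LOC_Os07g40380.1, and LOC_Os05g01310.1 was also lost without WT ACCC or emf2b TTAG (edgeR adjusted p = 0.136 and 0.0788).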

How the data were processed

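The values in the deposited table are raw counts of reads, with 1 gene model for each locus. Per the submitters' processing notes, TopHat2 2.0.5 and DESeq 1.10.1 were used. For the counter, the build, the annotation and strandedness, nothing is given in the sources used here. Per the labels' protocols, 10 ng of RNA were amplified to cDNA and 40 cycles of single reads were run.

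CPM used the column totals. Counts were tested with edgeR 4.0.16 in R 4.3.3 (filterByExpr with minimum count 10 and minimum total 15, TMM, quasi-likelihood F test, no term besides group, residual degrees of freedom 2, two-sided, Benjamini-Hochberg over all 22615 tested loci, threshold 0.05). Positive log2 fold changes mean more in emf2b, and the SE is the absolute log2 fold change over the square root of F. The test was checked on simulated data. Nothing says that libraries came from separate plants, so p-values measure only the spread between libraries. Counting 3 reads as a floor gives 0.232 and 0.177 CPM in emf2b GAGT and TTAG and 0.118 and 0.0935 CPM in WT ACCC and CGTA, for counting error only.

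The loci and gene lists were chosen with earlier results of these data known. The rule for named loci took those on the lists, the extremes of the ratios, the edges of the limit and adjacent loci, and at most 2 others by identifier alone; where more are named, and for neighbours, they were chosen after their values were seen. Names come from general knowledge of rice loci: of 158 list symbols, 117 occur in RefSeq (assembly ASM3414082v1, another build) on the chromosome of the identifier, 2 only on another and 39 not at all.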

Additional observations from a re-analysis of the deposited data

How the results depend on the processing

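All 36 loci were called higher under each alternative run: RLE factors, library totals alone, a minimum count of 30, no low-count filter, DESeq2 1.42.0, and each library left out in turn, with log2 fold changes from 2.98 to 6.72. Nothing is read from these calls, because the rule used the same contrast. Which loci the rule chose did change with its settings. TMM-scaled CPM gave 35 loci, no lower WT limit 36, and lowering emf2b counts by the 99th percentile at loci with no WT read (10 reads in GAGT, 22 in TTAG) 31, all among the 36. A ratio of 4 gave 63, a ratio of 16 gave 14, group means gave 132, and leaving out a library gave 43 to 122, most without an emf2b library. Loci next to another numbered 2, against 0 at a ratio of 16, 8 with group means, and 2 to 6 with a library left out. The median GAGT to TTAG ratio was 0.87, and 0.48 to 3.18 with a library left out; without an emf2b library the rule no longer bounds that library. Raised neighbours numbered 7 of 34 within 1 place (20.6%), 34 of 177 within 5 places (19.2%), and 5 to 14 with a library left out. Over all loci 2596 were called higher and 421 lower; with a minimum count of 30 these were 1256 and 190, with no filter 4294 and 1590, with a library left out 252 to 2191 and 37 to 471, and DESeq2 called 700 lower. Seed and dehydrin genes called higher numbered 5, and 1 to 5 with a library left out; defence genes 5, and 2 to 4; stress genes 4, and 0 to 8; MADS-box genes 3, and 0 to 2. With a minimum count of 30 these were 3, 3, 2 and 2. These list counts were added after seeing the data. Where 1 library was left in a genotype, it was assumed to vary like the other genotype. The cause of these shifts was not tested. No paired analysis was possible because the columns carry no replicate numbers. WT levels of 6 to 100 reads limit each ratio.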
